A study of Mus musculus with 6 samples.

Results

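Chemokines are small secreted proteins that attract white blood cells, and the probes for them and for their receptors were followed in mouse liver across 2 diets. A probe was a member if the gene name on the array began with Ccl, Ccr, Cxcl or Cxcr and a digit, or was Cx3cl1, Cx3cr1, Xcl1, Xcr1 or Pf4. These were 70 of 39429 probes, for 58 of 31829 gene names: 38 ligands with 46 probes and 20 receptors with 24 probes. The tissue was non-tumour liver of 6 male mice of the inbred strain C57BL/6, 5 weeks old at the start, of which 3 were given a control diet and 3 a diet with moderately restricted carbohydrate. The sample titles call both diets supplemented and do not say with what. According to the series title, the second diet also held phytochemicals that mimic calorie restriction, which the sample labels do not name. The sample labels give 1 week of feeding before injection and 5 weeks of diet, and the series text gives 2 weeks and 4 weeks. All 6 mice carried the same liver cancer model: a transposon vector with human HrasG12V, an activated form of a growth-signalling protein, a hairpin RNA against p53 (shp53) and GFP4, a fluorescent protein, brought into the liver by a rapid injection of fluid into the tail vein. The promoter of the vector is not given in the sources used here, and no mouse without the vector was among the samples.

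A chemokine acts by binding receptors that span the membrane of a leukocyte and signal through G proteins, and the cell then moves toward the source. In the liver, resident macrophages (Kupffer cells), endothelium, stellate cells and hepatocytes can all make chemokines. CC ligands such as Ccl2 bring in monocytes through Ccr2, CXC ligands such as Cxcl1 attract neutrophils through Cxcr2, and others, such as Cxcl12, are made without inflammation and keep cells in place.

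Each mouse gave 1 single-colour array, and values are log2 signals set against the 75th percentile of their own array, so 0 is a signal equal to that percentile. The percentile lay between 287.4 and 573.6 units of signal over the 6 arrays, and 23527 to 25816 probes of an array were well above background by the scanner software's mark. Precision is limited by having 3 arrays for each diet. The mice are separate animals, and p-values come from limma's moderated test with Benjamini-Hochberg adjustment over all 19616 features tested; a gene was called where the adjusted p was under 0.05, and its difference is restricted minus control, with the standard error of the fit (n = 3 per diet). In all, 5386 features were called (27.5%), 12.8% lower and 14.6% higher on the restricted diet, and the median feature was 0.12 higher; without control mouse 2 the count was 3362, and without restricted mouse 2 it was 3426. Slide 1 held the 3 control arrays and restricted mouse 1, and slide 2, scanned separately, held restricted mice 2 and 3. Hepatocyte markers had the high level of liver: the summed signal of 8 genes was 738.2 to 966 times the 75th percentile in control mice and 852.7 to 1096 times in restricted mice, with none of the 8 called. Of these 8, Alb, Ttr and Serpina1a were saturated on all 6 arrays, so the sums are lower limits and a difference in these 3 could not be read.

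Most chemokines and receptors that changed were lower in liver of mice on the restricted diet. Of the 58 genes, 40 were tested because a probe was well above background on all arrays of at least 1 diet. Lower signals were called for 14 of 26 ligands tested and 6 of 14 receptors tested, together 20 of 40 (50%), beside 12.8% of all features. Higher signals were called for 4 ligands and no receptor, together 10% of the 40, beside 14.6% of all features; no receptor was higher at an unadjusted p under 0.05 in limma either (0 of 14). The median difference was -1.39 over the ligands tested and -2.11 over the receptors tested. Because 6 ligands and 5 receptors entered only through the control diet, where they were brighter, and none only through the restricted diet, these shares are not a measure of the whole set. Among the 29 genes well above background on all 6 arrays, 13 were lower (10 ligands and 3 receptors) and 4 higher, beside 10.1% and 15% of all features measured on every array. The signals of the diets did not overlap for 22 of the 40, with the restricted mice below (18.8% of all features), and for 5, with the restricted mice above (26.1% of all features). Fewer cells of a type and less RNA per cell cannot be told apart in whole tissue.

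**Figure D1:**
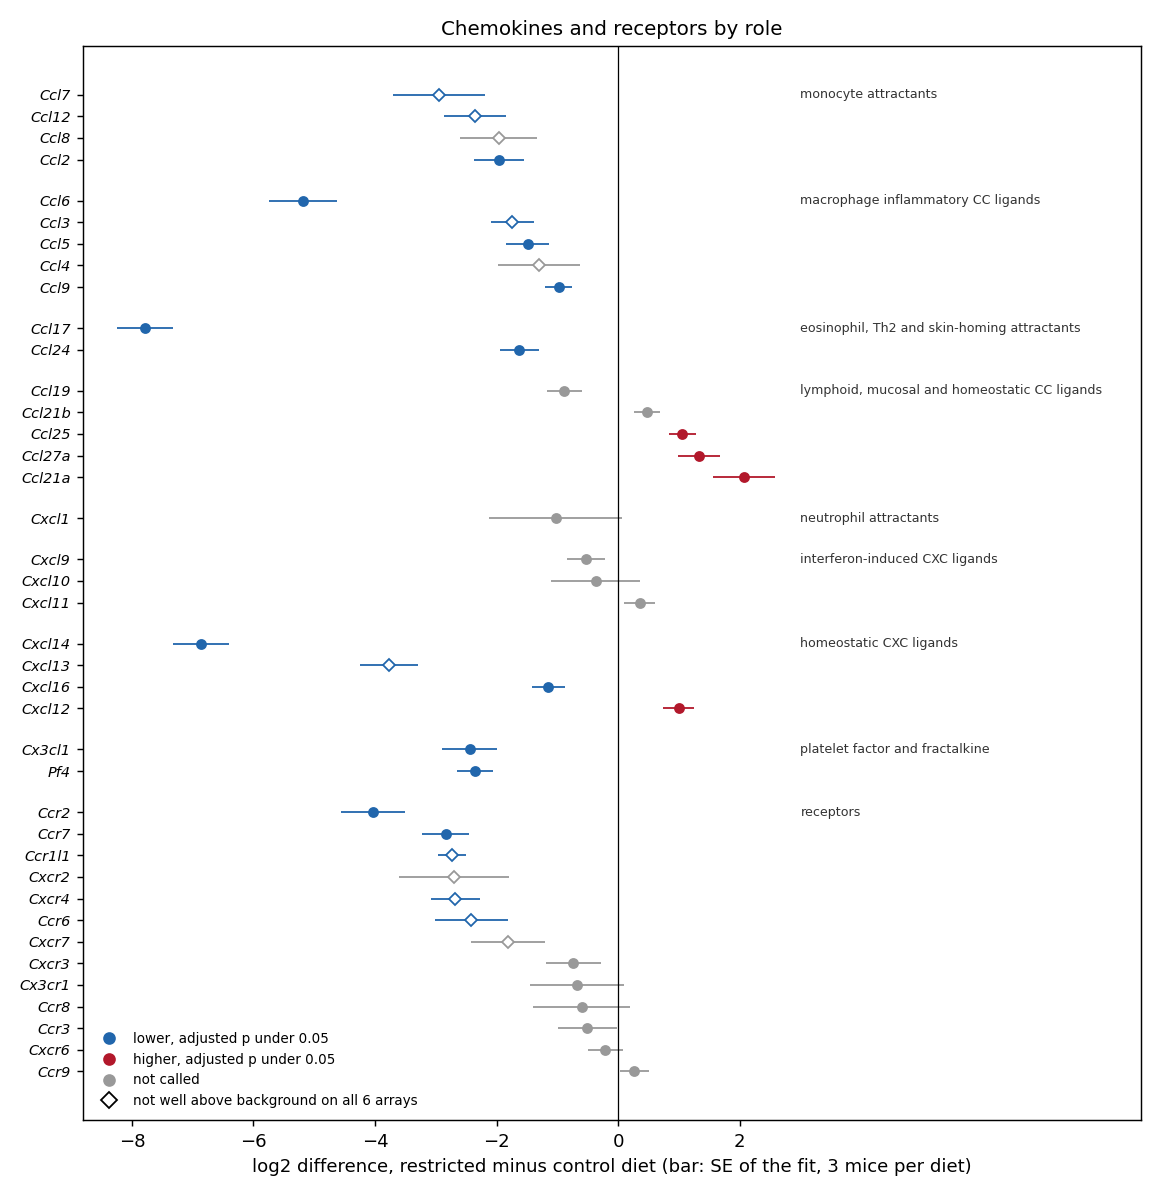
Difference between the diets (restricted minus control, log2, x axis) for 39 genes, grouped by role, with bars for the standard error of the fit over 3 mice per diet. Blue points are the 19 drawn genes called lower, red points the 4 called higher and grey points the 16 not called; open diamonds were not well above background on all 6 arrays, so their differences are less certain in size.

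The monocyte attractants Ccl2, Ccl7, Ccl8 and Ccl12 are encoded in 1 cluster on chromosome 11 and act through Ccr2 or, for Ccl8, through Ccr8. Of these 4, 3 fell, beside 12.8% of all features. Ccl7, Ccl8 and Ccl12 were tested only through the control diet, where they were brighter, so this count does not measure the group. Ccl2, the main attractant of blood monocytes, measured -1.16, -0.56 and 0.07 in the control mice and -3.18, -1.92 and -2.44 in the restricted mice, and fell by 1.96 (SE 0.41, adjusted p = 0.0134). Ccl7 measured -2.96, -1.66 and -1.61 against -6.72, -3.75 and -4.63 and fell by 2.95 (SE 0.76, adjusted p = 0.0276), and Ccl12 measured -3.87, -1.86 and -2.13 against -5.16, -5.10 and -4.65 and fell by 2.35 (SE 0.51, adjusted p = 0.0152). In all 3 genes each restricted mouse lay below each control mouse. The Ccl7 probe was well above background on 2 restricted arrays and that of Ccl12 on 1, so the sizes of these falls rest on signals close to background. Ccl8 measured -2.80, -1.63 and -1.96 against -5.16, -2.68 and -4.44, a difference of -1.96 (SE 0.63, adjusted p = 0.0579), and restricted mouse 2 reached the range of the control mice. Without restricted mouse 2 the Ccl8 difference was -2.67 (adjusted p = 0.00908), while Ccl12 no longer passed (-2.28, adjusted p = 0.0515). Ccl7 passed neither without control mouse 2 (adjusted p = 0.0906) nor without control mouse 3 (0.0679) or restricted mouse 3 (0.0519), and missed the threshold with no background filter (0.0549). After normexp background correction, which adds an offset that shrinks differences of dim probes, the differences were -0.86 for Ccl7 (adjusted p = 0.0496), -1.25 for Ccl2 (adjusted p = 0.0126) and -0.66 for Ccl12, which then did not pass (adjusted p = 0.159).

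The macrophage inflammatory CC ligands Ccl3, Ccl4, Ccl5, Ccl6 and Ccl9 attract monocytes, macrophages and T cells. Of these 5, 4 fell, beside 12.8% of all features. Ccl3 and Ccl4 were tested only through the control diet, so this count does not measure the group either. Ccl6, which macrophages and other myeloid cells make without stimulation, measured 5.99, 5.97 and 4.34 in control mice and 0.24, 1.07 and -0.55 in restricted mice. It fell by 5.18 (SE 0.56, adjusted p = 0.00106), or 36.2-fold on the linear scale. Ccl9, its neighbour on the chromosome and also a ligand of Ccr1, measured 4.67, 4.61 and 4.06 against 3.26, 3.60 and 3.55 and fell by 0.97 (SE 0.22, adjusted p = 0.0181). Both genes were well above background on every array, and no restricted mouse reached a control mouse in either.

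Ccl5, a product of T cells and natural killer cells, measured 1.03, 1.89 and 1.68 in control mice and -0.54, -0.00497 and 0.68 in restricted mice, and fell by 1.49 (SE 0.36, adjusted p = 0.0225). Ccl3 measured -3.66, -3.20 and -3.87 in control mice and was not well above background in any restricted mouse. Its signals as measured differed by -1.74 (SE 0.35, adjusted p = 0.0114). That p does not belong to the size given here, which is a bound: Ccl3 was at least 2.48-fold lower. That bound sets the mean of the control mice against a floor on each restricted array, which is the lowest signal well above background there or the signal of the probe itself where that is higher. Ccl4, a close relative of Ccl3, measured -3.87, -3.17 and -2.80 against -6.21, -3.87 and -3.66, a difference of -1.30 (SE 0.68, adjusted p = 0.201), with an overlap between the diets. The Ccl5 call ended without any 1 of 4 mice: control mouse 2 (adjusted p = 0.0799), control mouse 3 (0.0529), restricted mouse 1 (0.0543) and restricted mouse 2 (0.0696). The Ccl9 call ended without control mouse 1 (0.065), control mouse 2 (0.0695) or restricted mouse 1 (0.0553), and Ccl3 was -0.24 (adjusted p = 0.338) after normexp correction.

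Among attractants of eosinophils, Th2 cells and skin-homing T cells, Ccl17 had the largest difference of all 40 genes. Ccl17, a ligand of Ccr4 made by dendritic cells and alternatively activated macrophages, measured 4.55, 4.78 and 4.39 in control mice and -4.20, -2.22 and -3.20 in restricted mice. The signals stayed well above background on all 6 arrays, and the restricted mean was 220.2-fold below the control mean (SE 0.46 on the log2 scale, adjusted p = 0.000273). The size depends on the processing: the log2 difference was -7.78, and -6.39 after normexp correction. Ccl24, a ligand of the eosinophil receptor Ccr3, measured 0.28, 1.20 and 0.42 against -1.50, -0.67 and -0.81 and fell by 1.63 (SE 0.32, adjusted p = 0.0111). The other 3 of the group, Ccl1, Ccl11 and Ccl22, were not well above background on any array; Ccl22 shares the receptor of Ccl17 and lies in the same cluster on the chromosome.

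The homeostatic CXC ligands moved in both directions: of 4 tested, Cxcl14, Cxcl13 and Cxcl16 fell and Cxcl12 rose. Cxcl14, a chemokine of epithelia, measured 3.59, 3.02 and 3.37 in control mice and -4.64, -3.03 and -2.94 in restricted mice. On the linear scale the restricted mean was 116.6-fold lower (SE 0.46 on the log2 scale, adjusted p = 0.000334), again with all 6 arrays well above background. The log2 difference was -6.87, and it ranged from -7.97 to -5.32 over the alternative fits listed under processing. Cxcl13, which draws B cells through Cxcr5, measured -0.60, 0.23 and 0.43 against -3.49, -3.02 and -4.74 and fell by 3.77 (SE 0.48, adjusted p = 0.00186); 2 of its restricted arrays were well above background, and it fell by 2.17 after normexp correction. Cxcl16, a ligand of Cxcr6 that is also held on the cell surface, measured -0.66, -0.04 and -0.00384 against -1.81, -1.22 and -1.12 and fell by 1.15 (SE 0.27, adjusted p = 0.0206). The Cxcl16 call ended without control mouse 2 (adjusted p = 0.0757), restricted mouse 1 (0.0521) or restricted mouse 2 (0.0502).

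Cxcl12, the ligand of Cxcr4 that holds blood-forming and immune cells in place, measured 3.85, 3.65 and 4.38 in control mice and 4.64, 5.25 and 4.98 in restricted mice. Its rise of 0.99 (SE 0.26, adjusted p = 0.0288) came from the brighter of its probes, at chr6:117131227-117131286 in mm9; a probe at chr6:117125026-117125085 differed by 0.49 and its diets overlapped (adjusted p = 0.36 in the fit of every probe). The call ended without control mouse 1 (adjusted p = 0.0906) or 2 (0.0986), without restricted mouse 2 (0.1) or 3 (0.0736), under quantile normalization (0.70, adjusted p = 0.108) and with no background filter (0.0545). Cxcl17 was well above background on 1 array of each diet and was not tested.

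The stretch before the start of transcription is shown for Ccl17 and Cxcl14, the pair with the largest falls, and for Cxcl10, a classic interferon target that was not called. Each is 250 bases that end at the start site, from the RefSeq promoter table on GRCm38.p6, 5′ to 3′ on the gene's strand: chr8:94810203-94810452 (plus strand) for Ccl17, chr13:56296552-56296801 (minus strand) for Cxcl14 and chr5:92348890-92349139 (minus strand) for Cxcl10. Capitals mark matches to the GAS element TTCNNNGAA, which STAT proteins bind, the wider spaced STAT6 element TTCNNNNGAA, the interferon-stimulated response element (ISRE) GAAANNGAAA and the NF-kB consensus. Both strands were searched.
Ccl17: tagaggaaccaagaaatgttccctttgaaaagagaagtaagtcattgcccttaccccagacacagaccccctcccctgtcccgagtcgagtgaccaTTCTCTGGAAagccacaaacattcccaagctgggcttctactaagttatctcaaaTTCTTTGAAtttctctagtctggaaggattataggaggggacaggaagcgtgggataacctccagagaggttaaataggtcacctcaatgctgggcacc
Cxcl14: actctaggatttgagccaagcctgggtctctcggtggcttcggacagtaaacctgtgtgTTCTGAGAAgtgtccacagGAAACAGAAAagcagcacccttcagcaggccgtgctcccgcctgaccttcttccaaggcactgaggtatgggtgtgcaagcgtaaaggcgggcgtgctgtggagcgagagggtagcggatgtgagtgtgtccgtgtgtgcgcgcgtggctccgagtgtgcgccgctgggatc
Cxcl10: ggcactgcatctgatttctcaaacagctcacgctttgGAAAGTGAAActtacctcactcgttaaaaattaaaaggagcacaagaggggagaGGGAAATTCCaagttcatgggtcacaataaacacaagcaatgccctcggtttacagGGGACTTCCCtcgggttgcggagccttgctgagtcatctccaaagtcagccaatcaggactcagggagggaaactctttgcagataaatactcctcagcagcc
In Ccl17 a STAT6 element spans bases -154 to -145 and a GAS element bases -99 to -91 relative to the start. In Cxcl14 a GAS element spans -191 to -183 and an ISRE -172 to -163. Cxcl10 holds an ISRE at -213 to -204 and NF-kB matches at -159 to -150 and -103 to -94. Promoter windows of 300 bases (250 before the start and 50 after) were in the table for 43 of the 58 genes. A GAS match was found in 4 of the 43, namely Ccl17, Cxcl14, Ccr6 and Ccr1l1, a share of 9.3% beside 9.55% of 27025 genes. The STAT6 element was found in 1 of 43 (8.01% of all genes), the ISRE in 3 (3.99% of all genes) and the NF-kB consensus in 9 (5.14% of all genes). Searched in the same way but not marked above, the TATA box TATAAA was found in 13 of 43 (15.7% of all genes) and the AP-1 element TGANTCA in 8 (8.97% of all genes). None of these shares was tested. A match is a run of letters and was not tested as a binding site.

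Pf4 and Cx3cl1, which fall outside the groups above, both fell. Pf4 (platelet factor 4), stored in platelet granules, measured 2.19, 2.51 and 1.88 in control mice and -0.73, 0.21 and 0.02 in restricted mice, and fell by 2.36 (SE 0.30, adjusted p = 0.00179). The platelet genes Ppbp, Gp9 and Itga2b were lower too (3 of 3 tested, beside 12.8% of all features). The sum of the list was 0.495 to 0.715 times the 75th percentile in control mice and 0.14 to 0.262 times in restricted mice. Ppbp is also counted among the further pathway genes below. Gp9 and Itga2b had restricted means of -4.09 and -4.88, near the lowest signals well above background on the restricted arrays (-5.117 to -4.805). The part of these platelet genes in the Pf4 result was not tested. Cx3cl1 (fractalkine), which is anchored on endothelial and epithelial cells, measured -0.14, -0.13 and -0.12 against -3.66, -2.33 and -1.72 and fell by 2.44 (SE 0.45, adjusted p = 0.00849). The SD was 0.0081 among its control mice and 0.99 among its restricted mice. Xcl1, an attractant of cross-presenting dendritic cells, was well above background on 1 restricted array and was not tested.

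The lymphoid, mucosal and homeostatic CC ligands held the other 3 genes that rose. Ccl21a, made by lymphatic endothelium and stroma of lymphoid tissue for cells with Ccr7, measured -1.26, 0.22 and -0.55 in control mice and 0.57, 2.15 and 1.89 in restricted mice, and rose by 2.07 (SE 0.51, adjusted p = 0.0241). Ccl25, known from thymus and gut, measured -0.68, -0.40 and -0.48 against 0.53, 0.19 and 0.88 and rose by 1.06 (SE 0.22, adjusted p = 0.0131). Ccl27a, a keratinocyte chemokine in skin, measured 0.02, 0.14 and 1.20 against 1.50, 1.77 and 2.11 and rose by 1.34 (SE 0.34, adjusted p = 0.0281). In each the restricted mice lay above the control mice.

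Other probes of these ligands did not all follow. Ccl21b, a near copy of Ccl21a whose probe shares a stretch of its sequence with that of Ccl21a, differed by 0.48 (SE 0.21, adjusted p = 0.143), and the 2 genes cannot be fully separated on the array. Ccl27a had 4 probes: that at chr4:41716345-41716404 in mm9 gave the rise, an overlapping one gave 1.32, and those at chr4:41720062-41720121 and chr4:41720610-41720669 gave -0.03 and -0.16 (adjusted p = 0.941 and 0.553 in the fit of every probe). Ccl19, the second ligand of Ccr7, differed by -0.88 on its brightest probe (SE 0.29, adjusted p = 0.0595) and by 0.05 and 0.30 on the others. Ccl28 was dim in all control mice and well above background in restricted mice 2 and 3; it was not tested, and its signal was at least 1.995-fold higher in restricted mice. Ccl20 and Ccl26 were not well above background on any array.

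Several of these calls did not hold with a mouse left out, though the differences kept their sign. In the fits where the call ended, Ccl21a differed by 1.705 to 2.06 and Ccl27a by 1.12 to 1.35. The Ccl21a call ended without control mouse 1 (adjusted p = 0.0748) or 3 (0.0527) and without restricted mouse 2 (0.0786) or 3 (0.07). The Ccl27a call ended without control mouse 1 (0.09) or 2 (0.0961) and without restricted mouse 2 (0.0779) or 3 (0.0819), and with no background filter (0.0545). Of the 4 ligands called higher, 1 was left without control mouse 1, restricted mouse 2 or restricted mouse 3, and 2 were called without control mouse 2. Some endothelial markers were higher beside them: 4 of 9 (Clec4g, Lyve1, Oit3 and Tek) rose, beside 14.6% of all features. The rest were not called, with differences of 0.52 (Pecam1), 0.48 (Kdr), 0.30 (Stab1), -0.20 (Stab2) and -0.73 (Cdh5). The sum of the list was 24.9 to 37.1 times the 75th percentile in control mice and 42.4 to 56.3 times in restricted mice. The part of these markers in the rises of the ligands was not tested.

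**Figure D2:**
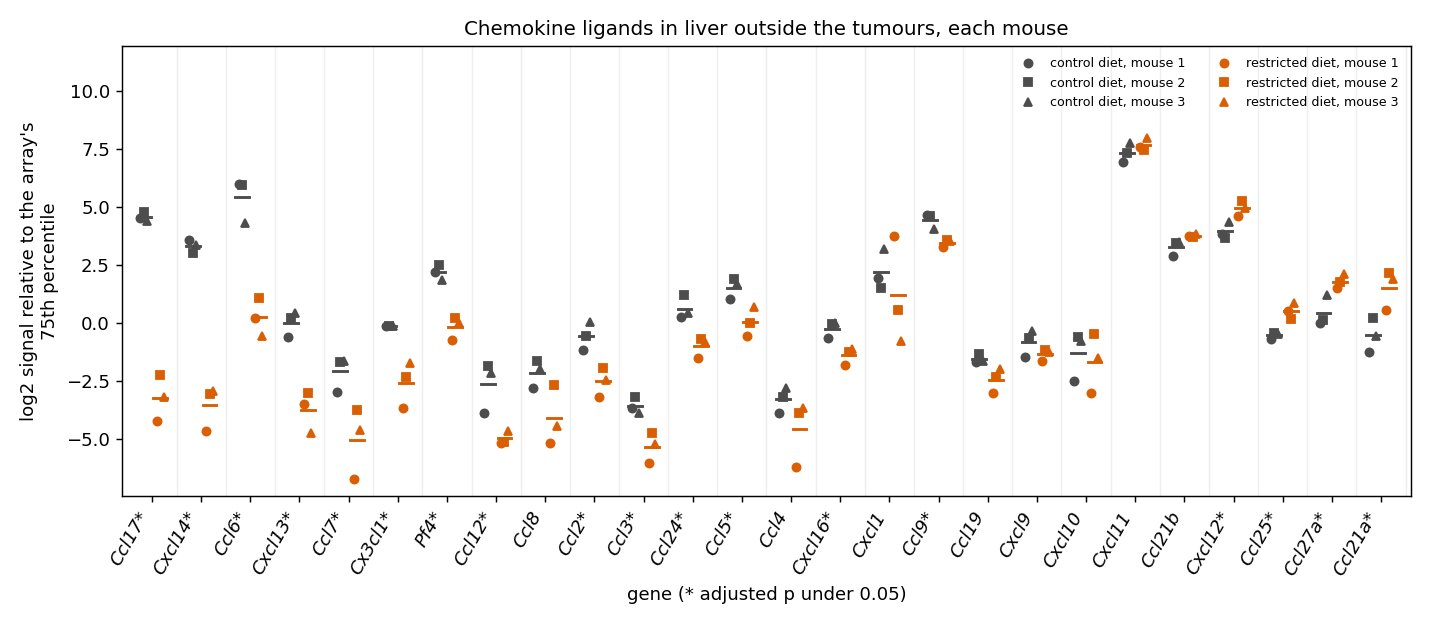
Log2 signal over the 75th percentile of the array (y axis) in each mouse for the 26 ligands tested (x axis, ordered by difference, * for adjusted p under 0.05), with control mice in grey, restricted mice in orange and bars for the mean of 3 mice. Ccl17, Cxcl14 and Ccl6 have the widest gaps between the diets, and the mice on the restricted diet are spread over several units for Cxcl1; heights of different genes come from different probes and cannot be compared.

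Neutrophil attractants and interferon-induced ligands showed no call. Cxcl1, the mouse counterpart of the human GRO chemokines, was the single neutrophil attractant tested, with 1.95, 1.54 and 3.20 in control mice and 3.77, 0.57 and -0.75 in restricted mice. Restricted mouse 1 was above all control mice and the other two were below them, so the difference of -1.03 (SE 1.09, adjusted p = 0.519) averages opposite values; without restricted mouse 1 it was -2.32 (adjusted p = 0.0391). Cxcl2 and Cxcl5 were well above background on 1 control array each, and Cxcl3 and Cxcl15 on none. Cxcl9 differed by -0.53 (SE 0.31, adjusted p = 0.253), and Cxcl10, with -2.47, -0.61 and -0.79 against -3.03, -0.46 and -1.49, by -0.37 (SE 0.73, adjusted p = 0.744).

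Cxcl11 differed by 0.36 (SE 0.26, adjusted p = 0.345) on a probe that was saturated on all 6 arrays, and by -0.30 on its other probe. The saturated probe shares stretches of 16 or more bases with 11 probes of other genes, 9 of which share letters of the run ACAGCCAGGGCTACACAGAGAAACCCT. A p that misses the threshold does not show that the diets were alike for these 4 genes.

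Of the 14 receptors tested, 6 fell and none rose, beside 12.8% and 14.6% of all features. As 5 of the 14, with Cxcr4, Ccr6 and Ccr1l1 among them, were tested only through the control diet, these counts do not measure the receptors as a set. Of the 9 well above background on all 6 arrays, 3 were lower, beside 10.1% of all such features. Receptors of monocytes and dendritic cells were among those that fell. Ccr2, which leads monocytes out of the bone marrow and into tissue, measured 0.51, 0.11 and 1.14 in control mice and -4.64, -2.75 and -2.94 in restricted mice, and fell by 4.03 (SE 0.53, adjusted p = 0.00212). Ccr7, which takes mature dendritic cells and naive T cells to lymph nodes, measured -0.10, 0.90 and -0.02 against -3.16, -2.61 and -1.95 and fell by 2.835 (SE 0.39, adjusted p = 0.00254). Both were well above background on every array, and the diets did not overlap. After normexp correction the difference of Ccr2 was -2.68, and it still passed.

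Cxcr4, Ccr6 and Ccr1l1 fell too and were near background on the restricted diet. Cxcr4, the receptor of Cxcl12, measured -2.03, -2.41 and -2.76 in control mice and -5.17, -5.81 and -4.26 in restricted mice, 1 of which was well above background, and fell by 2.68 (SE 0.40, adjusted p = 0.00369). Ccr6, the receptor of Ccl20 on B cells, some T cells and dendritic cells, measured -3.33, -1.92 and -2.26 against -6.15, -4.63 and -3.97 and fell by 2.42 (SE 0.60, adjusted p = 0.0246). Ccr1l1, a rodent relative of Ccr1, measured -4.24, -4.26 and -4.90 in control mice and was dim in all restricted mice. Its signals as measured differed by -2.74 (SE 0.23, adjusted p = 0.000482). With the dim signals set to a floor, Ccr1l1 was at least 1.38-fold lower, a bound to which that p does not belong. The Ccr6 call ended without control mouse 2 (adjusted p = 0.0849), control mouse 3 (0.0594) or restricted mouse 2 (0.0561). After normexp correction the differences were -0.65 for Ccr6 (adjusted p = 0.12), -0.26 for Ccr1l1 (adjusted p = 0.282) and -0.78 for Cxcr4 (adjusted p = 0.0189). In that fit 12 ligands and 4 receptors were lower (8.74% of all features) and 4 ligands higher (12.8% of all features).

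The 8 receptors tested and not called were Ccr3, Ccr8, Ccr9, Cx3cr1, Cxcr2, Cxcr3, Cxcr6 and Cxcr7. Cxcr2, the neutrophil receptor of Cxcl1, measured -2.35, -2.84 and -2.92 in control mice and -3.15, -5.95 and -7.12 in restricted mice. Every restricted mouse was lower than every control mouse, but restricted mouse 1 was close to them, and the difference was -2.70 (SE 0.91, adjusted p = 0.0669) with all mice and -3.83 (adjusted p = 0.00218) without that mouse. Cxcr7, now named Ackr3, is an atypical receptor that takes up Cxcl12 and differed by -1.81 (SE 0.61, adjusted p = 0.0669), or by -2.37 without control mouse 3 (adjusted p = 0.023). Ccr8 measured 0.26, -0.14 and -0.51 against 0.89, -0.48 and -2.60, the widest spread among restricted mice of a receptor after Cxcr2, and differed by -0.60 (SE 0.80, adjusted p = 0.614). The remaining 5 differed by -0.74 (Cxcr3, SE 0.45), -0.68 (Cx3cr1, SE 0.77), -0.51 (Ccr3, SE 0.49), -0.21 (Cxcr6, SE 0.30) and 0.26 (Ccr9, SE 0.24), with overlapping diets.

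The other 6 receptors were not tested. Ccr4 and Xcr1 were not well above background on any array, Ccr10 was on 1 restricted array, Cxcr1 on 1 control array and Cxcr5 on 2 control arrays. Ccr1 was well above background in 2 control mice and in no restricted mouse, which bounds it at 1.22-fold lower or more. With no background filter it was tested and fell by 2.20 (SE 0.26, adjusted p = 0.00364); in that fit 13 ligands and 7 receptors were lower and 2 ligands higher, beside 6.96% and 7% of 31896 features.

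**Figure D3:**
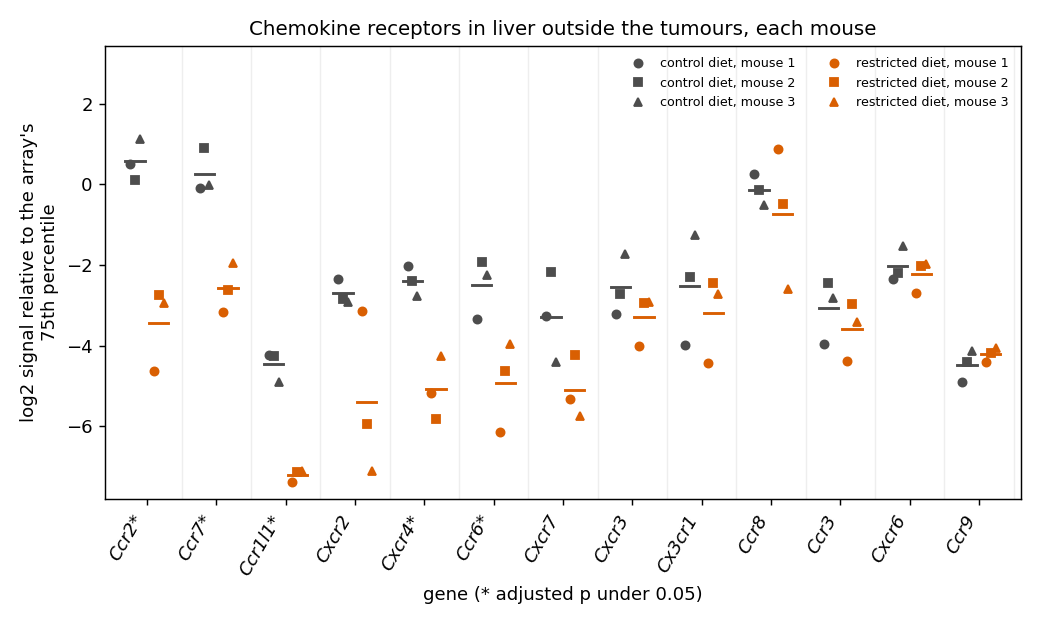
Log2 signal over the 75th percentile of the array (y axis) in each mouse for 13 receptors (x axis, ordered by difference, * for adjusted p under 0.05), with control mice in grey, restricted mice in orange and bars for the mean of 3 mice. Ccr2, Ccr7, Ccr1l1, Cxcr4 and Ccr6 separate the diets, and for Cxcr2 restricted mouse 1 lies near the control mice.

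Set side by side, some ligands and receptors of a pair were both lower and others were not. Ccl2 and Ccr2 both fell. Ccl17 fell where its receptor Ccr4 was not well above background on any array, and Ccr6 fell where its ligand Ccl20 was not. Ccr7 fell while its ligand Ccl21a rose, and Cxcr4 fell while Cxcl12 rose. Cxcl16, Cx3cl1 and Ccl24 fell, and their receptors Cxcr6, Cx3cr1 and Ccr3 were not called. Ccl25 rose and Ccr9 was not called, Ccl27a rose and Ccr10 was too dim to test, and Cxcl13 fell with Cxcr5 too dim to test. Cxcl9, Cxcl10, Cxcl11 and Cxcr3 were not called, nor were Cxcl1 and Cxcr2 or Ccl8 and Ccr8, and Xcl1 and Xcr1 were too dim to test. No test of a pair was made.

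Chemokine genes lie in clusters, here taken as members no more than 500 kb apart on mm9. At chr11:81850650-81990227, with 6 genes, 3 of 4 tested (Ccl2, Ccl7 and Ccl12) fell, and at chr11:83339296-83478111 4 of 5 (Ccl3, Ccl5, Ccl6 and Ccl9) did, beside 12.8% of all features. Ccl7, Ccl8 and Ccl12 in the first and Ccl3 and Ccl4 in the second were tested only through the control diet, so these counts do not measure the clusters. At chr8:97274709-97335829 Ccl17 and Cx3cl1 fell, and Ccl22, at the start of that stretch, was dim. The interferon-induced trio at chr5:92752191-92788626 had no call in 3 tested. In a further chromosome 5 cluster, chr5:91190490-91334593, 2 of 6 genes were tested, and Pf4 fell while Cxcl1 was not called. The probe of Cxcl14 is at chr13:56390078-56390137, that of Ccr7 at chr11:99005551-99005610 and that of Cxcr4 at chr1:130485079-130485138; exon and UTR annotation of these positions was not used here.

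Genes that act with or after chemokine receptors were read from a list of 58 further genes, of which 54 were tested. Lower signals were called for 32 of the 54 (12.8% of all features) and higher signals for 4 (14.6% of all features), with a median difference of -1.07. The smallest p-values among those lower belonged to leukocyte signalling genes. Vav1, an exchange factor for Rac, fell by 2.51 (SE 0.16, adjusted p = 0.000332). Pik3r5, a subunit of the phosphoinositide kinase that G proteins switch on, fell by 3.38 (SE 0.22, adjusted p = 0.000333). The Src family kinase Fgr fell by 2.75 (SE 0.20, adjusted p = 0.000379), and Dock2, which drives the movement of lymphocytes, by 3.50 (SE 0.27, adjusted p = 0.000382). Dock2 had a restricted mean of -5.19, below the lowest signals well above background on the restricted arrays (-5.117 to -4.805), so the size of its fall is uncertain. The 4 that rose were Mif, a cytokine that also binds Cxcr4 and Cxcr2, by 1.27 (SE 0.16, adjusted p = 0.00189), Cmtm8 by 1.41 (SE 0.22, adjusted p = 0.00429), Dpp4, a protease that trims chemokines such as Cxcl12, by 0.62 (SE 0.16, adjusted p = 0.0295) and the G protein subunit Gnai3 by 0.56 (SE 0.16, adjusted p = 0.0406). Other members of the family of atypical receptors, Ackr2 (-0.54, adjusted p = 0.283), Ackr1 (0.10, adjusted p = 0.872) and Ccrl2 (-0.38, adjusted p = 0.444), were not called.

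Markers of the cells that carry these receptors or make these ligands differed as well. The counts of markers below stand beside 12.8% of all features called lower and 14.6% called higher. All 14 macrophage and Kupffer cell markers fell, and their summed signal was 239.8 to 318.2 times the 75th percentile in control mice and 42.5 to 62.3 times in restricted mice. Of 10 dendritic cell markers, of which Siglech was saturated on all arrays, 7 fell, with sums of 195.1 to 271.3 and 152.7 to 227.8 times; of 6 monocyte markers 4 fell, with sums of 38.2 to 49.9 and 28.5 to 49.2 times. Of 10 neutrophil markers 5 fell and 1 rose (151.5 to 184.1 and 91.9 to 134.9 times), and of 7 T cell markers tested 4 fell (29.2 to 45.9 and 24.8 to 36.1 times). In the dendritic cell, monocyte, neutrophil and T cell lists the brightest marker, which weighs most in the sum, was not called. Control and restricted means were 7.11 and 7.41 for Siglech and 4.22 and 4.71 for Itgam. They were 6.63 and 6.66 for Csf3r and 5.03 and 4.67 for Cd4. Median differences of the markers tested were -3.135 (dendritic cell), -2.35 (monocyte), -3.53 (neutrophil) and -0.91 (T cell). Natural killer cell markers summed to 3.07 to 4.31 and 3.71 to 4.32 times, with 1 of 4 tested lower and Eomes, Klrk1 and Ncr1 dim on every array; B cell markers summed to 1.40 to 2.21 and 1.28 to 2.16 times, with none of 3 tested called and Blk dim on every array. Of the eosinophil and mast cell list, Siglecf fell among 2 tested (0.544 to 1.16 and 0.161 to 0.33 times), and Cpa3 and Fcer1a were dim on every array. Stellate cell markers were lower for 5 of 9 (109.1 to 144 and 46.0 to 74.6 times) and cholangiocyte markers for 3 of 5 (4.31 to 5.07 and 0.678 to 1.61 times). Restricted means were -6.21 for Siglecf, -5.88 for Ngp, -5.84 for Epcam, -5.75 for Krt7 and -5.11 for Mpo. These are near or below the lowest signals well above background on the restricted arrays (-5.117 to -4.805), so the sizes of these falls are uncertain. The part of all these marker lists in the chemokine results was not tested.

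The slides divide the restricted mice, so each difference was also read within slide 1, as restricted mouse 1 against the 3 control mice; a fit with slide as a block gives the same differences. There Ccl17 differed by -8.78, Cxcl14 by -7.97, Ccl6 by -5.20, Ccr2 by -5.22, Ccr7 by -3.42, Pf4 by -2.93 and Cxcl13 by -3.51. Ccl7, Ccr6 and Cxcr4 were not well above background in restricted mouse 1. With dim signals raised to the lowest well above background on their array, they differed by -3.04, -2.62 and -2.72 within slide 1, and by -2.42, -2.07 and -2.35 over all mice. With slide as a block 15 ligands and 6 receptors were called lower, beside 9.65% of features, and no ligand and no receptor higher, beside 5.71%; at an unadjusted p under 0.05 limma gave 1 ligand higher and 0 receptors. The calls of Ccl12 (adjusted p = 0.0781) and Ccl9 (0.0559) ended, as did all 4 rises: Ccl21a with 1.10 (0.24), Ccl27a with 1.05 (0.224), Ccl25 with 1.05 (0.0908) and Cxcl12 with 0.68 (0.26). Ccl19 (-1.46, adjusted p = 0.0211) passed there. So did Ccl4 (0.0082) and Ccl8 (0.0411), but both were not well above background in restricted mouse 1, on which these calls rest; with dim signals raised in the same way their differences within slide 1 were -1.84 and -2.99. Cxcl1 (1.55) and Ccr8 (1.02) took the opposite sign without a call. On slide 1 alone, where the lone restricted mouse is taken to vary like the control mice, Cxcl16 did not pass either (adjusted p = 0.0549).

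Restricted mouse 1 had the lowest signal of the 3 restricted mice in 17 of the 20 chemokine and receptor genes called lower (85%), beside 60.4% of all 2518 features called lower and 37.8% of all features tested. Without it, 12 ligands and 7 receptors were called lower, beside 10.9% of features, and Cxcl1 and Cxcr2 were among them. The 5 ligands called higher there, beside 10.8% of features, include Ccl28, which passed the background filter only through restricted mice 2 and 3.

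**Figure D4:**
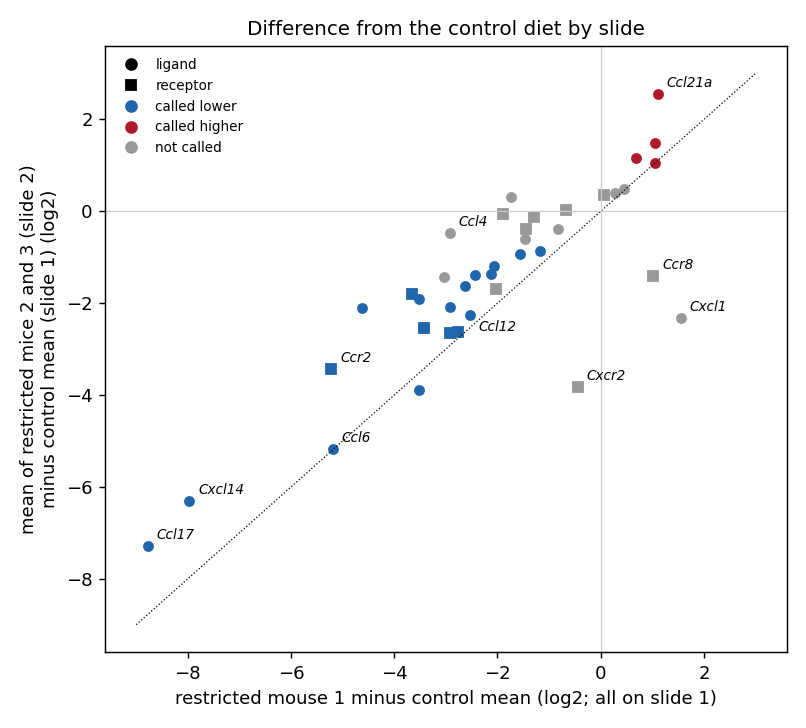
Difference from the control mean in restricted mouse 1, on the same slide as the control mice (x axis, log2), against that of the mean of restricted mice 2 and 3, on slide 2 (y axis, log2), for 39 genes, with dim signals as measured; the dotted line marks equal differences. All 19 drawn genes called lower are below 0 on both axes and all 4 called higher are above 0 on both, while Cxcl1, Ccr8, Cxcl10 and Cxcr6, none of them called, change sign between the axes.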

How the data were processed

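RNA of liver outside the tumours was measured on 6 single-colour Agilent arrays. The intensity values used are the processed signals that the authors deposited in the scanner files, made per the file headers by Agilent Feature Extraction 10.7.3.1 (9.3.2.1 in the submitters' processing notes). Values that the authors deposited for each probe matched the mean of those intensities within 0.1% for at least 99.8% of probes on every array; they are linear and not centred, with array medians of 27.52 to 52.12. Probe positions are on mm9, per the file headers' annotation columns.

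Spots flagged as outliers were dropped. The log2 values of a probe's spots were averaged, and each array was centred on its 75th percentile. Probes had to be well above background on every measured array of 1 diet or both, and the brightest probe stood for its gene; 26055 of 39429 probes were named through RefSeq. The diets were compared with limma 3.58.1 (lmFit, eBayes) in R 4.3.3 with the data.table package (1.17.8). The fit was tested on simulated data, where it recovered 21 of 100 changes of 1 log2 unit and 63 of 100 changes of 2 units. Of its 92 calls there, 8 were on features without a change.

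Members are counted in full, but 1 is not reported here by name or drawn; called members are given by mouse, and of the further pathway genes the 4 with the smallest p in each direction are named. The members, the lists and the tests were chosen with earlier results of these data known. Alternatives were normexp background correction (offset 50), quantile and median scaling, the deposited values per probe, other background filters, array weights, trend and robust moderation, blocks for slide or mouse number, slide 1 alone, every probe, other thresholds and leaving out each mouse.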

Additional observations from a re-analysis of the deposited data

How the results depend on the processing

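All 24 called chemokine and receptor genes kept their direction in the 20 alternatives (where a gene could be fitted), and 10 kept the call in all of them, Ccl6, Ccl17, Cxcl13, Cxcl14, Cx3cl1, Pf4, Ccr2, Ccr7 and Cxcr4 among them. Features called, 5386 as reported, numbered 3013 with slide as a block, 2254 on slide 1 alone and 2533 at adjusted p under 0.01. Ligands called lower, 14 as reported, numbered 6 at adjusted p under 0.01. Ligands called higher, 4 as reported, numbered 2 with no background filter and 0 with slide as a block, on slide 1 alone and at adjusted p under 0.01 in limma (1 at an unadjusted p under 0.05 with slide as a block and on slide 1 alone). Receptors called lower, 6 as reported, numbered 3 where only features well above background on all arrays were tested. Of the further pathway genes, 32 lower and 4 higher as reported, 20 were lower on slide 1 alone; 2 were higher under quantile normalization, with no background filter, with slide as a block and at adjusted p under 0.01, and 1 on slide 1 alone. Leaving out each mouse in turn gave 3362 to 5887 features, 10 to 14 ligands lower, 1 to 5 ligands higher, 5 to 7 receptors lower, 25 to 32 pathway genes lower and 2 to 3 higher. Differences that changed sign, none of them called in either fit, were Ccr8 (1.02 with slide as a block and on slide 1 alone, -1.40 to 0.34 without single mice), Cxcl1 (1.55 with slide as a block and on slide 1 alone), Cxcl10 (-0.97 to 0.31 without single mice, positive without restricted mouse 1), Cxcl11 (-0.00039 under quantile normalization) and Cxcr6 (0.0026 with array weights, -0.36 to 0.037 without single mice, positive without control mouse 3 and, at 0.022, without restricted mouse 1). The cause was not tested.

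With mouse number as a replicate block, 6623 features, 17 ligands lower and 4 higher, 9 receptors lower and 33 pathway genes lower and 4 higher were called. Whether the numbers pair the mice cannot be told from these values. Deviations of same-numbered mice correlated by 0.384, -0.00224 and 0.482, and those of differently numbered mice by -0.499 to 0.118.

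Signals within reach of background limit Ccl3, Ccl7, Ccl12, Ccr1l1, Ccr6 and Cxcr4, the called genes whose differences shrank by more than 3 times under normexp correction, and Cxcl11, saturated on every array.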
